A study of Mus musculus with 8 samples.

Results

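The antiviral interferon-stimulated effector genes code for the proteins with which a cell attacks viral RNA, viral proteins and the membranes that viruses use. A set of 41 such genes was taken from the count table of sorted Paneth cells, as the entries whose Ensembl identifier carries one of the listed symbols in the GENCODE mouse annotation, out of 55414 identifiers in all. All 41 were present. Of these, 35 had enough counts to be tested and 6 did not (Ifit3, Mx1, Mx2, Ifitm1, Ifi44 and Ifi27l2a).

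RNA was sequenced from Paneth cells, which sit in the crypts of the small intestine and secrete antimicrobial peptides. Wild-type mice were given either PBS, the saline control, or TNF, a cytokine of inflammation, and the cells were sorted from the small intestine 3 hours later. Each group had 4 libraries, which the series describes as biological replicates, so that p-values measure the spread between these libraries. Both groups shared the genotype, the tissue, the time and the sort. The study's methods name C57BL/6J mice, while neither labels nor methods give the age of the animals or the dose of TNF.

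Interferons are secreted when a cell senses infection, and bind receptors whose JAK kinases activate transcription factors of the STAT family. Together with IRF9 these bind the interferon-stimulated response element (ISRE), a short DNA sequence in the promoters of the effector genes, and several IRF proteins bind the same element. In the gut, TNF acts on epithelial cells mainly through NF-kB, which can raise the level of IRF1, and this type of gene is known best from infected or interferon-treated epithelium.

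The libraries held 23824717 to 32576077 counts. TNF replicate 4 stood apart from the other 7 libraries. Its TMM scaling factor, which corrects a library for the share of counts taken by a few very abundant genes, was 0.448 against 0.995 to 1.36 elsewhere, and the alpha-defensin genes took 51.4% of its counts against 32.0% to 37.9% elsewhere. Results are therefore given with and without it where it matters. All 10 Paneth markers examined were tested. Reg3g (1.80), Pla2g2a (1.01), Nupr1 (0.81) and Sox9 (0.67) were called higher, with log2 fold changes in brackets, and the other 6 were not called. The summed level of the 10 was 312509 to 460681 normalized CPM (CPM, counts per 1000000 counts of the library, after TMM scaling) in PBS, 391747 to 458061 in TNF replicates 1 to 3, and 1214990 in TNF replicate 4.

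Most of the effector genes that could be tested were higher after TNF. Tested by quasi-likelihood in edgeR across 13368 genes, with p-values adjusted after Benjamini and Hochberg, 25 of the 35 tested members were called higher in TNF at an adjusted p under 0.05 (71.4%), none was called lower and 10 were not called. Of all genes tested, 23.3% were called higher and 19.6% lower. Among the 25 called members 21 were at least 2-fold higher and 12 at least 4-fold higher, from Oas1a at a log2 fold change of 0.65 to Parp14 at 4.07. The median log2 fold change of the tested members was 1.30 against 0.03 for all genes tested.

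The filter on low counts matters for these figures, since a gene that reaches it only through its TNF libraries passes because some of them are high. For 30 of the tested members the PBS libraries alone were enough, and 21 of these were called higher (70.0%), with a median log2 fold change of 1.15. The other 5 (Ifit1, Oas2, Oas3, Rsad2 and Sp100) needed the TNF libraries, and 4 of them were called. In normalized CPM, every TNF library lay above every PBS library in 25 of the tested members, against 22.4% of all genes tested. Without TNF replicate 4, when 26.6% of all genes tested were called higher and 23.8% lower, 27 of 37 tested members were called higher and none lower. The calls added were those of Lgals3bp and Mx2, and Mx2 reached the filter there only through its TNF libraries.

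**Figure D1:**
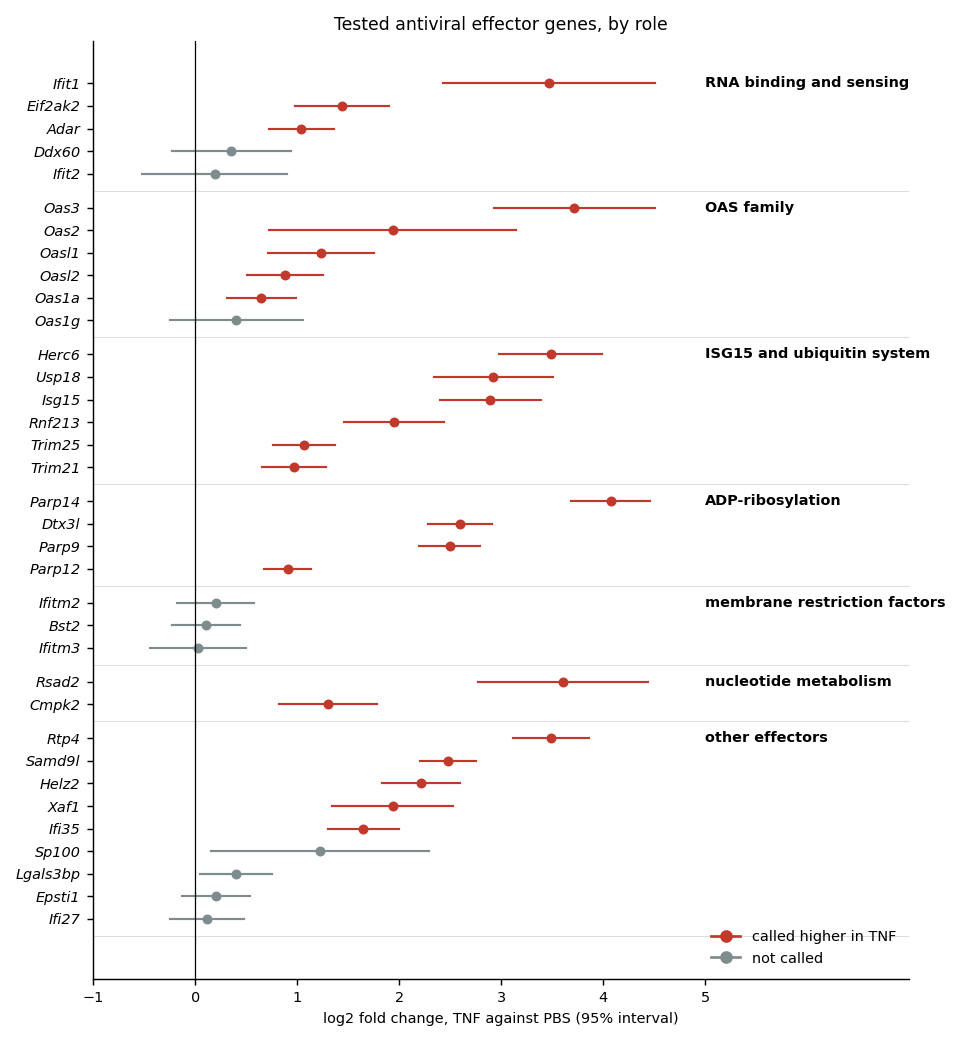
Log2 fold change of TNF against PBS for the 35 tested members, grouped by role, with points for the estimate and lines for the 95% interval (4 libraries per group). Red marks the 25 members called higher and grey the 10 not called, and the 3 tested membrane restriction factors all sit near 0 while all members of the ISG15 and ADP-ribosylation groups lie to the right of it.

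The ISRE core could be searched for in the reference genome. Promoter windows of 250 bases before to 50 bases after the start of the Ensembl canonical transcript were searched on both strands (GRCm39, GENCODE M39). An ISRE core, taken as GAAA and GAAA with 2 bases of any kind between them, or its reverse complement, was found in 16 of the 41 members (39%), against 3.83% of the windows of all 21627 protein-coding genes. Overlapping matches were each counted. The members held 29 matches, 10 members had more than 1, and in 13 members at least 1 match lay before the transcript start, at most 132 bases away. In Eif2ak2, Trim21 and Oas1a the matches lay after the start.

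Stretches before the transcript start are given for 6 members that were called higher and 4 that were not, because the same element occurs in both. The 6 were chosen after their values were seen, as those with the largest rises among the called members with a match. The stretches are written on the strand of the gene, with up to 15 bases on each side and none past the start, and capitals mark the ISRE core matches that end before it. A further match in Rtp4, which begins 2 bases before the start, is not in its stretch. The stretch of Ifit1 is at chr19:34618170-34618228 (plus strand), Isg15 at chr4:156285317-156285368 (minus), Usp18 at chr6:121222767-121222830 (plus), Oas3 at chr5:120915775-120915814 (minus), Rsad2 at chr12:26506547-26506586 (minus) and Rtp4 at chr16:23428580-23428645 (plus).
Ifit1: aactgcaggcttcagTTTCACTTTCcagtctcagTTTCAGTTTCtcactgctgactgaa
Isg15: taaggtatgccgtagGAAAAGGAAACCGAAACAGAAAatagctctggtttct
Usp18: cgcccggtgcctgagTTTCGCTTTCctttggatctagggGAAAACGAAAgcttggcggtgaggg
Oas3: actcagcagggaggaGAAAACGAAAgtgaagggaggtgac
Rsad2: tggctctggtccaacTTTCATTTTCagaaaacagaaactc
Rtp4: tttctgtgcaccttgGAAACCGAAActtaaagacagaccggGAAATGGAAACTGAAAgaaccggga

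These 6 genes rose by between 2.89 and 3.72 on the log2 scale, and the other 5 called members with a match by 0.65 (Oas1a) to 1.95 (Rnf213). The next 4 were tested and not called: Bst2 at chr8:71990216-71990261 (minus), Ddx60 at chr8:62381053-62381122 (plus), Oas1g at chr5:121025664-121025709 (minus) and Ifi27 at chr12:103400377-103400416 (plus).
Bst2: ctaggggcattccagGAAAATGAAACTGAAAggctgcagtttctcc
Ddx60: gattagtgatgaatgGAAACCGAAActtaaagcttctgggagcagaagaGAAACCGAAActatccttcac
Oas1g: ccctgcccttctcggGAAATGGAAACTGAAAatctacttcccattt
Ifi27: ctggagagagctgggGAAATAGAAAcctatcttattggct

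An ISRE core was present in 11 of the 25 members called higher (44.0%) and in 4 of the 10 not called (40.0%). Of those 11, Ifit1, Oas2, Oas3 and Rsad2 passed the filter only through their TNF libraries. Parp14, Herc6, Dtx3l, Parp9, Samd9l and Helz2, which all rose at least 4-fold, held no match in this window. The GAS core, which STAT dimers bind (TTC and GAA with 3 bases between them), was in 7 members (17.1%, against 8.85% of all windows). The kappaB consensus, which NF-kB binds, was in 6 (14.6%, against 8.95%), among them 2 of the 25 called higher (Oas3 and Oasl1) and 4 of the 10 not called (Bst2, Epsti1, Ifit2 and Oas1g). In Bst2 and Rnf213 the GAS core match overlapped an ISRE core match. A match describes the letters in the window and does not show that a factor binds there.

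**Figure D2:**
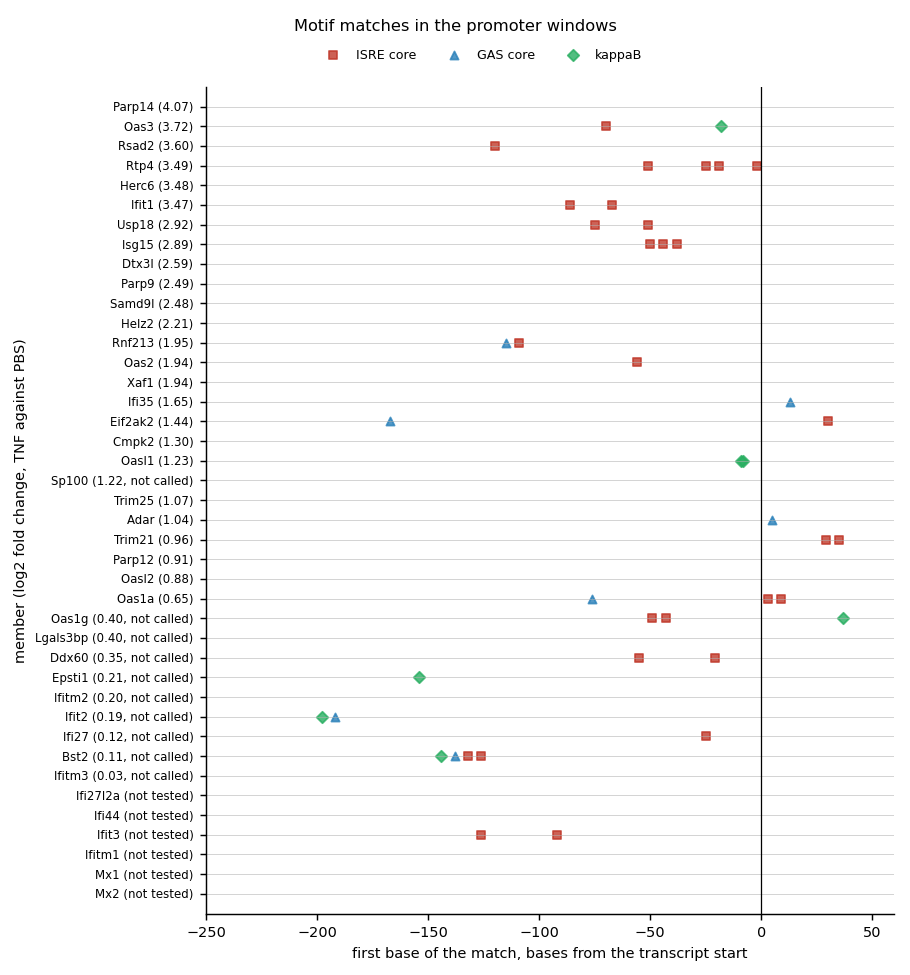
Position of each motif match in the promoter window, in bases from the transcript start, for the 41 members ordered by log2 fold change of TNF against PBS. Red squares (ISRE core), blue triangles (GAS core) and green diamonds (kappaB) occur at the top and at the bottom of the order, and Parp14, with the largest rise, has none.

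Proteins for RNA binding and sensing act on viral RNA itself, and 3 of the 5 tested genes were called higher. Ifit1, whose protein holds viral RNA that lacks host-type methylation of its cap, had 0.268, 0.186, 0.473 and 0.158 normalized CPM in PBS replicates 1 to 4 and 4.23, 2.80, 3.41 and 0.945 in TNF replicates 1 to 4. The groups did not overlap on this scale, and TNF replicate 4 was the lowest of the TNF libraries. Without scaling, TNF replicate 4 had 0.423 CPM, within the PBS range of 0.195 to 0.504. Ifit1 rose by 3.47 ± 0.47 (log2 fold change ± SE, adjusted p = 0.000183 in edgeR), which is 11.1-fold, and by 3.74 ± 0.33 without TNF replicate 4. Eif2ak2, the kinase PKR that stops translation on double-stranded RNA, had 8.67 ± 2.69 normalized CPM in PBS and 23.6 ± 2.43 in TNF (SD, n = 4) and rose by 1.44. Adar, which edits adenosines in double-stranded RNA, rose by 1.04, with 1365 of its 8130 exon bases shared with Chrnb2 on the opposite strand.

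The close relatives of Ifit1 were not called. The 3 genes lie within 1 stretch of chromosome 19 on the plus strand, Ifit2 at chr19:34527932-34554524, Ifit3 at chr19:34560899-34566443 and Ifit1 at chr19:34618271-34632174. Ifit2 had 0.402 to 0.749 normalized CPM in PBS and 0.519 to 0.923 in TNF, with a log2 fold change of 0.19 and a 95% interval of -0.52 to 0.90. Ifit3 had 3, 0, 0 and 2 counts in PBS and 2, 1, 3 and 0 in TNF, too few to test. Its promoter window held 2 ISRE core matches. How reads shared by closely related genes were counted is not stated, so the low counts of Ifit3 are uncertain. Ddx60, a helicase that aids RNA sensing, had a log2 fold change of 0.35 (-0.23 to 0.93) and was not called.

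The OAS proteins make oligoadenylates that switch on the nuclease RNase L. Of the 6 genes in this group, which also holds the OAS-like genes Oasl1 and Oasl2, 5 were called higher. Oas3 had 0.161, 0.186, 0.237 and 0.294 normalized CPM in the PBS libraries and 3.69, 4.05, 1.93 and 2.06 in the TNF libraries. All TNF libraries were far above all PBS libraries, with replicates 3 and 4 lower than replicates 1 and 2. Oas3 rose by 3.72 ± 0.36 (adjusted p = 1.67e-05 in edgeR), or 13.1-fold. Its neighbours on the minus strand of chromosome 5 had smaller estimates. Oas2 (chr5:120868398-120887933) rose by 1.94 ± 0.55, on 14 counts in PBS replicate 1 and 2 to 5 in the other PBS libraries. Without PBS replicate 1 it rose by 2.64 (adjusted p = 0.00483 in edgeR), and without TNF replicate 2 its log2 fold change of 1.61 was not called (adjusted p = 0.0583 in edgeR). Oas1a (chr5:121031070-121046449) rose by 0.65 ± 0.15 from 6.97 to 10.9 normalized CPM. Oas1g (chr5:121014205-121025676) was not called at 0.40 (-0.25 to 1.05). Oas1a and Oas1g are close copies, and no source used here says how shared reads were counted, so their single values are uncertain. The OAS-like genes Oasl1 and Oasl2, also side by side on chromosome 5, rose by 1.23 and 0.88.

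The Mx genes code for GTPases that trap viral nucleoproteins, and neither passed the filter. Mx2 had 1, 1, 3 and 2 counts in the PBS libraries and 18, 21, 38 and 7 in the TNF libraries, so that the groups did not overlap in normalized CPM (0.0268 to 0.118 against 0.602 to 1.33). Left in without a filter its log2 fold change was 3.85 ± 0.60, a value that depends on the prior count (adjusted p = 8.09e-06 in edgeR). Without TNF replicate 4 it passed the filter through its TNF libraries and was called higher at 4.01 ± 0.53 (adjusted p = 7.77e-05 in edgeR). Mx1 had 0, 1, 0 and 7 counts in PBS and 0, 4, 4 and 0 in TNF. Many laboratory strains, C57BL/6J among them, carry a defective Mx1 allele.

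ISG15 is a small ubiquitin-like protein that is attached to new proteins during infection, and all 6 genes of the ISG15 and ubiquitin group were called higher, with a median log2 fold change of 2.42. Herc6, the mouse ligase that attaches ISG15, had 0.536, 0.372, 0.670 and 0.589 normalized CPM in PBS and 7.28, 6.20, 4.78 and 6.27 in TNF. The TNF libraries lay close together and well above PBS. Herc6 rose by 3.48 ± 0.23 (adjusted p = 1.28e-06 in edgeR), or 11.2-fold, and shares 1269 of its 10434 exon bases with the noncoding gene Gm45193 on the same strand. Usp18, which removes ISG15 and damps interferon receptor signals, rose by 2.92 ± 0.26, and Isg15 itself by 2.89 ± 0.23 from 0.431 ± 0.0854 to 3.19 ± 0.236 normalized CPM. Rnf213, a very large ubiquitin ligase, rose by 1.95 ± 0.22, and Trim21, an antibody receptor with ligase activity, by 0.96 ± 0.14.

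Trim25, the ligase that assists the RNA sensor RIG-I, was the member of this group with the highest resting level per exon length. It had 84.2, 87.5, 83.1 and 92.3 normalized CPM in PBS and 187.4, 179.5, 216.4 and 144.5 in TNF. TNF replicate 4 was the lowest of its group and still above each PBS library. Trim25 rose by 1.07 ± 0.14 (adjusted p = 0.000133 in edgeR).

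The genes for ADP-ribosylation, the transfer of ADP-ribose onto proteins, were all called higher, with a median log2 fold change of 2.54 over the 4. Parp14 had 8.34, 5.84, 6.94 and 9.44 normalized CPM in PBS and 133.6, 129.5, 143.8 and 108.9 in TNF. The rise was present in each TNF library and was the largest among the tested members, at 4.07 ± 0.18 (adjusted p = 1.54e-07 in edgeR) or 16.8-fold. Parp9 and its partner Dtx3l, a ubiquitin ligase, rose by 2.49 ± 0.13 and 2.59 ± 0.14. These 3 genes are neighbours on chromosome 16 (Parp14 at chr16:35653231-35692003, Dtx3l at chr16:35746881-35759521 and Parp9 at chr16:35758840-35792980). Parp9 and Dtx3l share 458 exon bases on opposite strands, and no source used here says whether strand was used in counting. Parp12, which lies on chromosome 6, rose by 0.91 ± 0.10 from 14.2 to 26.6 normalized CPM.

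The membrane restriction factors stood at the other end. Ifitm proteins block the fusion of viral and endosomal membranes and Bst2 (tetherin) holds budding virus at the cell surface, and none of the 3 tested was called. Ifitm2 had 22.2, 23.2, 25.9 and 16.4 normalized CPM in PBS and 22.4, 26.9, 20.5 and 31.3 in TNF, which overlap, and its log2 fold change was 0.20 (95% interval -0.18 to 0.58, adjusted p = 0.367 in edgeR). Ifitm3 had 20.3, 22.1, 20.03 and 12.9 in PBS and 12.6, 21.2, 19.1 and 24.1 in TNF. Its log2 fold change was 0.03 (-0.45 to 0.50, adjusted p = 0.935 in edgeR), and it turned to -0.08 without TNF replicate 4. Bst2 had 4.99, 4.95, 4.61 and 3.62 in PBS and 4.79, 4.95, 5.16 and 4.55 in TNF, a log2 fold change of 0.11 (-0.23 to 0.44, adjusted p = 0.603 in edgeR). For all 3 the groups overlapped and the interval left out a 2-fold rise. Ifitm1 had 4 or 5 counts in every library of PBS, and 8, 7, 6 and 2 counts after TNF. Ifitm2 shares 268 of its 999 exon bases with Gm45717 on the same strand, so its counts are uncertain.

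Rsad2 and Cmpk2 are neighbours on chromosome 12 that act on nucleotides, Cmpk2 as a kinase that supplies CTP and Rsad2 (viperin) as the enzyme that turns CTP into a chain terminator of viral RNA synthesis. Both were called higher. Rsad2 had 0.0536, 0.0744, 0.118 and 0.113 normalized CPM in PBS, which were 2 to 5 counts per library, and 0.959, 1.11, 0.983 and 1.63 in TNF. No TNF library overlapped with PBS, and replicate 4 was the highest. Rsad2 rose by 3.60 ± 0.38 (adjusted p = 2.94e-05 in edgeR) and Cmpk2 by 1.30 ± 0.22 from 2.85 to 6.94 normalized CPM.

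The remaining 11 effectors have mixed roles, and 5 of the 9 tested were called higher. Rtp4, an inhibitor of flavivirus replication, had 0.912, 1.38, 1.22 and 1.09 normalized CPM in PBS and 14.5, 13.1, 12.2 and 11.3 in TNF. The TNF libraries differed little from each other and all exceeded PBS. Rtp4 rose by 3.49 ± 0.17 (adjusted p = 2.49e-07 in edgeR), or 11.2-fold, and shares 1129 of its 4242 exon bases with the noncoding gene Gm45338 on the same strand. Samd9l, which restricts translation in infected cells, rose by 2.48 ± 0.12, the helicase gene Helz2 by 2.21 ± 0.17, Xaf1, a promoter of cell death, by 1.94 ± 0.27 and Ifi35 by 1.65 ± 0.16, with 620 of its 3816 exon bases shared with Vat1 on the opposite strand. Sp100, a protein of nuclear bodies that silence viral DNA, had a log2 fold change of 1.22 (0.16 to 2.29) and was not called (adjusted p = 0.0627 in edgeR). Ifi44 had 2 to 12 counts in the PBS libraries and 15, 22, 8 and 2 in the TNF libraries, and Ifi27l2a had at most 3 counts in any library.

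Lgals3bp, a secreted glycoprotein, was among the most abundant members, and its adjusted p lay near the threshold. It had 82.9, 91.0, 96.4 and 68.1 normalized CPM in PBS and 119.9, 126.6, 116.0 and 83.0 in TNF. TNF replicates 1 to 3 lay above all PBS libraries on this scale and replicate 4 within their range. Without scaling, TNF replicate 4 had 37.2 CPM, under the PBS range of 92.3 to 104.1. The log2 fold change was 0.40 ± 0.16 and not called (0.04 to 0.75, adjusted p = 0.0682 in edgeR), while without TNF replicate 4 it was 0.53 ± 0.12 and called higher (adjusted p = 0.00327 in edgeR). Ifi27 had 7.78, 9.23, 7.65 and 7.81 in PBS and 7.24, 8.07, 8.39 and 11.9 in TNF, with a log2 fold change of 0.12 (-0.24 to 0.48, adjusted p = 0.593 in edgeR). Epsti1 had 5.50, 5.92, 7.02 and 4.91 in PBS and 7.21, 7.06, 6.78 and 5.67 in TNF, with a log2 fold change of 0.21 (-0.13 to 0.54, adjusted p = 0.293 in edgeR). Both overlapped between the groups.

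**Figure D3:**
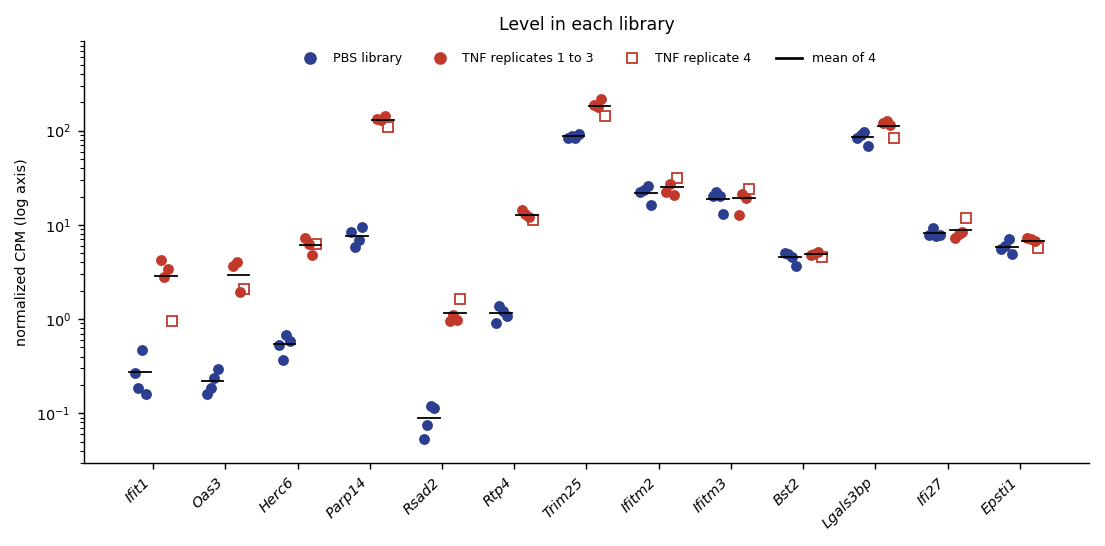
Normalized CPM (log axis) of 13 members in each library, with circles for PBS (blue) and TNF replicates 1 to 3 (red), an open square for TNF replicate 4 and a line for the mean of 4 libraries. The 6 members on the left and Trim25 are separated between the groups, whereas Ifitm2, Ifitm3, Bst2, Lgals3bp, Ifi27 and Epsti1 overlap.

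Levels of different genes were compared per length, as FPKM (normalized CPM per kilobase of exon). In PBS the highest members were Ifitm2 at 21.96 ± 3.99, Lgals3bp at 16.1 ± 2.34, Trim25 at 15.1 ± 0.714, Ifitm3 at 14.7 ± 3.16 and Bst2 at 3.74 ± 0.524 FPKM (SD, n = 4), and only Bst2 was separated from its neighbour in that order by more than the ranges of mean ± SD. Of these 5 only Trim25 was called higher in TNF. The members with the lowest tested levels in PBS, Rsad2 at 0.0207, Oas3 at 0.0310 and Ifit1 at 0.0366 FPKM, were still under 1 FPKM in TNF, at 0.270, 0.415 and 0.383.

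Parp14 moved furthest in the order, from rank 20 in PBS to rank 5 in TNF of the 41 members. It went from 0.797 ± 0.165 to 13.5 ± 1.53 FPKM. Trim25 was highest in TNF at 31.6 ± 5.13, followed by Ifitm2 at 25.3 ± 4.81, Lgals3bp at 21.2 ± 3.69 and Ifitm3 at 15.03 ± 3.80 FPKM, and neighbours in that order overlapped in their ranges of mean ± SD. Isg15 moved from rank 23 to rank 14 and Bst2 from rank 5 to rank 15. Epsti1 went from rank 7 to rank 18 and Ifi27 from rank 9 to rank 20. A mean of at least 1 FPKM was reached by 16 members in PBS and 25 in TNF.

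**Figure D4:**
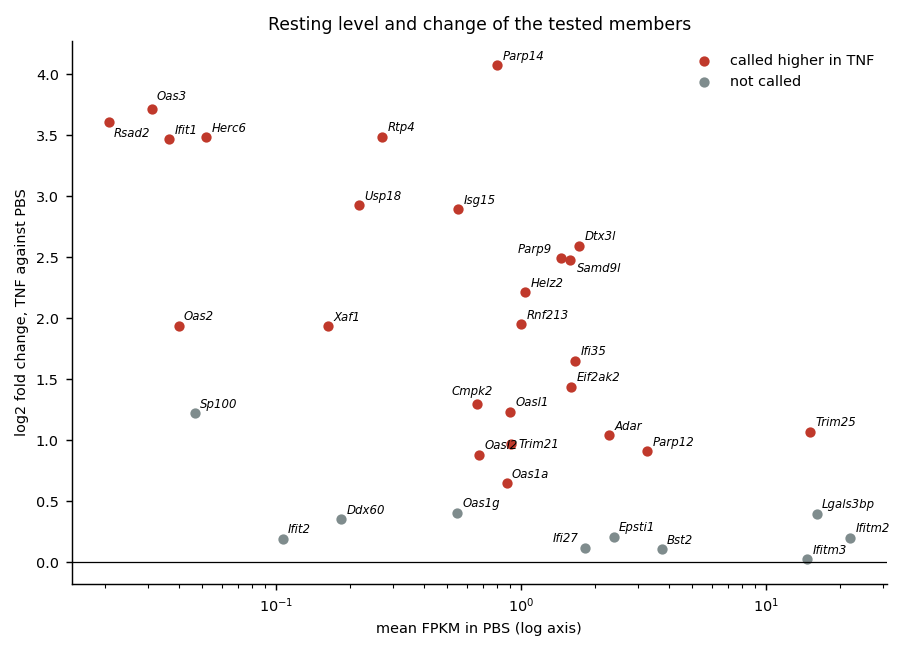
Log2 fold change of TNF against PBS for the 35 tested members, plotted against their mean FPKM in PBS (log axis), in red if called higher and grey if not called. Ifitm2, Lgals3bp and Ifitm3 at the right, with 14.7 to 21.96 FPKM, have log2 fold changes of 0.40 or less, Trim25 among them at 15.1 FPKM has 1.07, and Parp14 has the largest at 0.797 FPKM.

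The size of the change in TNF replicate 4 depended on the scale. As a share of all counts the 41 members took 0.0386% to 0.0493% in the PBS libraries, 0.0970% to 0.109% in TNF replicates 1 to 3 and 0.0373% in TNF replicate 4. For the 25 called members the median log2 ratio to the PBS mean was 2.06, 1.85 and 2.10 in TNF replicates 1 to 3 and 0.54 in replicate 4 when counts were divided by all counts of the library. After TMM scaling the medians were 2.20, 2.12, 2.22 and 1.94. These 25 were called on the same libraries. Over all 35 tested members the median difference from PBS in log2 normalized CPM, with a prior count of 2, was smaller. It was 1.51, 1.51, 1.32 and 1.26 in TNF replicates 1 to 4. Without scaling, TNF replicate 4 was above every PBS library for 12 of the 25, among them Parp14, Isg15 and Rsad2, and under the PBS mean for 9 (Adar, Cmpk2, Eif2ak2, Oas1a, Oasl1, Oasl2, Parp12, Trim21 and Trim25). When no scaling factor was used, 15 members were called higher, against 5.66% of all genes tested. With TNF replicate 4 left out as well, 27 were called, against 16.4%. Whether the high defensin share of TNF replicate 4 accounts for its low unscaled values was not tested.

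**Figure D5:**
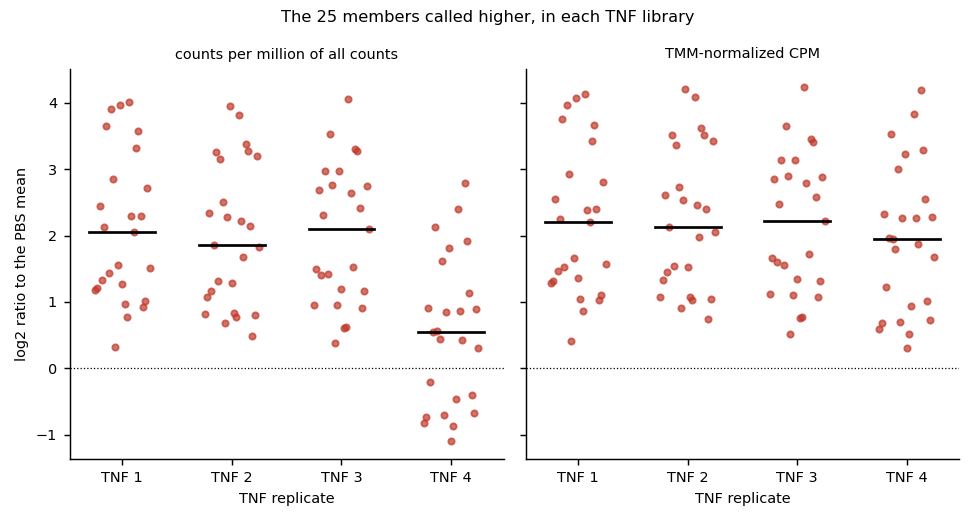
Log2 ratio of each TNF library to the PBS mean for the 25 members called higher (points, 1 per member, with the median as a line), as CPM relative to all counts on the left and after TMM scaling on the right. On the left TNF replicate 4 has a median of 0.54 against 1.85 to 2.10 in the other TNF libraries, and on the right its median is 1.94.

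Genes upstream of the effectors were followed from a list of ligands, receptors and transcription factors. No count was found in any of the 8 libraries for 10 interferon genes (Ifnb1, Ifna1, Ifna2, Ifna4, Ifna5, Ifnk, Ifne, Ifng, Ifnl2 and Ifnl3), which allows up to 3 counts per library, or 0.0679 to 0.258 normalized CPM. These limits cover counting error only, and interferon made by other cells of the tissue was outside the measurement. Of the 9 receptor and kinase genes 7 were called higher, with Ifnar1, a chain of the type I receptor, at a log2 fold change of 1.47, the type II receptor chain Ifngr2 at 1.60 and Jak2 at 1.86. Tyk2, the kinase bound to Ifnar1, fell by 0.42 on the log2 scale, and Il10rb was not called at 0.06 (-0.18 to 0.29).

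Transcription factor genes of the pathway were also called higher. Stat2 and Irf9, which belong to the ISRE-binding complex, rose by 1.73 and 1.02. Irf1 had 28.2 ± 2.91 normalized CPM in PBS and 143.7 ± 19.4 in TNF (SD, n = 4) and rose by 2.35 ± 0.14. Irf7 rose by 1.28, Irf8 by 1.49 and Irf2 by 0.86, while Irf3 was not called at 0.18 (-0.13 to 0.48).

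Markers of other cells that a sort could carry over were examined because such cells can express the same effectors. In bulk libraries, fewer cells of a type and less RNA per cell cannot be told apart. Of 12 immune markers 3 were tested, and Cd3e, Cd79a, Itgax and Siglech had no count in any library. The immune list summed to 10.2 to 14.7 normalized CPM in PBS and 14.0 to 16.8 in TNF replicates 1 to 3. It summed to 71.4 in TNF replicate 4, where Lyz2 made up 64.4. Lyz2 and Lyz1 lie near each other on chromosome 10, and Lyz1 had 454456 normalized CPM in TNF replicate 4. No source used here says how reads shared by related genes were counted, so the level of Lyz2 is uncertain. Csf1r had 2.10 normalized CPM in PBS and 2.99 in TNF and was not called (log2 fold change 0.51, adjusted p = 0.0721 in edgeR), while without TNF replicate 4 it was called higher (0.56, adjusted p = 0.0431 in edgeR), as it was without PBS replicate 4 (0.66, adjusted p = 0.0228 in edgeR). Lyz2 was not called (1.37, adjusted p = 0.0805 in edgeR), but was called higher without TNF replicate 1 or 3 (1.56 and 1.63). Without TNF replicate 4 its log2 fold change was 0.24 and not called (adjusted p = 0.327 in edgeR). Cd52 was called higher, at 0.470 normalized CPM in PBS, 0.772 to 1.25 in TNF replicates 1 to 3 and 3.35 in TNF replicate 4. Of 8 stroma and endothelium markers Vim alone was tested and rose from 0.273 to 1.16 normalized CPM, and Col1a2 and Col3a1 had no count in any library. The list summed to 0.223 to 0.453 normalized CPM in PBS and 1.23 to 1.84 in TNF replicates 1 to 3. In TNF replicate 4 the sum was 1.29.

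Epithelial markers moved in several directions. Among 5 stem cell markers 4 were called lower (Lgr5, Ascl2, Smoc2 and Axin2). The enterocyte marker Apoa4 was called lower (log2 fold change -3.94, or -5.10 without TNF replicate 1). Among 6 goblet markers 2 were called higher (Muc2 and Spdef) and 2 lower (Clca1 and Fcgbp). The goblet sum was 2973 to 4987 normalized CPM in PBS and 6040 to 6748 in TNF replicates 1 to 3. In TNF replicate 4 it was 4948. Muc2 went from a mean of 1960 in PBS to 4718 in TNF (log2 fold change 1.27). Clca1 had 554 normalized CPM in PBS replicate 1, 41.1 to 44.0 in the other PBS libraries and 24.0 to 42.2 in TNF, and its log2 fold change of -2.55 was -0.60 without PBS replicate 1. Of the 4 enteroendocrine markers tested, out of 5, 3 were called higher (Chga, Chgb and Gcg), with the list summing to 10.3 to 13.2 normalized CPM in PBS, 30.3 to 39.9 in TNF replicates 1 to 3 and 61.0 in TNF replicate 4. The calls of Clca1, Spdef and Gcg were each lost when any of several single libraries was left out. The 3 tuft cell markers were not called with or without TNF replicate 4. Their sum was 11.9 to 27.3 normalized CPM in PBS, 7.58 to 14.7 in TNF replicates 1 to 3 and 52.9 in TNF replicate 4. The enterocyte sum was 97.4 to 135.2 in PBS, 47.8 to 56.1 in TNF replicates 1 to 3 and 101.8 in TNF replicate 4, and without that library Fabp2 (-0.89) and Sis (-0.92) were also called lower. The part of these cell types, and of immune and stromal cells, in the change of the effector genes was not tested.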

How the data were processed

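RNA-seq of sorted mouse Paneth cells was analysed in 4 PBS and 4 TNF libraries, made with a stranded mRNA kit. The authors deposited raw counts per Ensembl gene with no normalization. The submitters' processing notes name FastQC 0.12, STAR 2.7.10a, DESeq2 and the build mm39. The counter, its strand setting and its treatment of shared reads are named by no source used here, so values of overlapping and closely related genes are uncertain. Symbols, coordinates and exon lengths came from GENCODE M39 (GRCm39), which matched 54749 of 55414 identifiers, and genome sequence came from GRCm39.

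TNF was compared with PBS by edgeR's quasi-likelihood test (glmQLFTest, edgeR 4.0.16, R 4.3.3) with TMM scaling, the filterByExpr filter and no covariate, a procedure tested on simulated data. Benjamini-Hochberg adjustment covered all genes tested. SE was derived from the F statistic and 95% intervals from its degrees of freedom. Normalized CPM used filtered, TMM-adjusted library sizes. The 41 members, their role classes and the lists of pathway genes and cell markers were chosen with earlier results of these data known. Full values were given for the largest called rise in each role class, the 5 highest members in PBS by FPKM, and uncalled members with a mean of at least 5 normalized CPM. Other members are given by counts, ranges and log2 fold changes. A few genes of the pathway and marker lists are not reported here.

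Alternatives were DESeq2 1.42.0, limma-voom (limma 3.58.1), RLE scaling, TMM that left out the 28 Defa genes, library size alone, every gene with at least 1 count, a minimum of 1 CPM in 4 or more libraries, a replicate block, an adjusted p under 0.01, and leaving out each library in turn. Library size alone without TNF replicate 4 was added after seeing the data. With 23824717 to 32576077 counts per library, a library with no count of a gene allows up to 3 counts.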

Additional observations from a re-analysis of the deposited data

Results flagged for a closer look

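Each member and the members' share of counts were checked for a library far from the other 3 of its group, in 84 groups of 4 libraries, of which chance alone flags about 1 in 20. A library stood apart in 4 of them. Ifi35 had 24.3 normalized CPM in TNF replicate 4 and 18.2 to 18.6 in the other TNF libraries. Ifi27 had 9.23 normalized CPM in PBS replicate 2 and 7.65 to 7.81 in the other PBS libraries. Ifi27l2a had 0.258 normalized CPM in TNF replicate 4, which was 3 counts, and 0.0692 to 0.0710 in the other TNF libraries, which were 2 counts each. The members together took 0.0373% of the counts of TNF replicate 4 and 0.0970% to 0.109% of those of the other TNF libraries. Of the 4 flags 3 were in TNF replicate 4, whose scaling factor was the lowest.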

How the results depend on the processing

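The count of 25 members called higher stayed within 1.5 times of itself under all but 1 of the 18 other settings, and 0 members were called lower in each. It was 25 with RLE scaling, limma-voom and TMM without the Defa genes, 26 with DESeq2, 27 without a filter, 21 with the CPM filter, 24 at an adjusted p under 0.01 and 24 to 27 when each library was left out in turn. With library size alone it was 15, and the members' median log2 fold change was 0.97 in place of 1.30. That setting moved the median of all genes from 0.03 to -0.38, and 10 calls were lost (Eif2ak2, Adar, Oas1a, Oas2, Oasl1, Oasl2, Trim21, Trim25, Parp12 and Cmpk2). With TNF replicate 4 left out as well, a setting chosen after seeing the data, 27 were called. Leaving out each library gave medians of 1.27 to 1.57. Oas2 had log2 fold changes of 1.58 to 2.64 when each library was left out, and lost its call without TNF replicate 2 and at the stricter threshold, and the cause was not tested. The other 24 kept theirs in every setting but library size alone where they were tested.

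The replicate numbers only name the libraries. Deviations of equally numbered libraries correlated at 0.02, 0.07, -0.14 and -0.13, and 2 of 4 PBS libraries correlated best with their own number. With the replicate block 27 members were called higher and 0 lower, with Sp100 (1.37) and Lgals3bp (0.39) added. Sp100 was also called with DESeq2, without a filter and without PBS replicate 4 or TNF replicate 3.

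Only uncalled members changed sign. Library size alone gave log2 fold changes of -0.20 for Ifit2, -0.027 for Oas1g, -0.26 for Bst2, -0.23 for Ifitm2, -0.41 for Ifitm3, -0.34 for Ifi27 and -0.14 for Epsti1. With TNF replicate 4 also left out, they were -0.027 for Ifit2, -0.024 for Bst2, -0.062 for Ifitm2, -0.25 for Ifitm3 and -0.20 for Ifi27. Ifitm3 was at -0.027 without a filter. Leaving out each library in turn gave -0.16 (PBS replicate 4) to 0.15 for Ifitm3, -0.0074 (PBS replicate 1) to 0.30 for Ifit2, -0.023 (PBS replicate 4) to 0.15 for Bst2 and -0.022 (TNF replicate 4) to 0.18 for Ifi27. Low counts limited the 6 untested members and those with a few counts per PBS library. What deeper sequencing would show for them was not tested.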
